A study of Mus musculus with 6 samples.

Results

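Fatty acids are the main fuel of the adult heart, and the 38 genes described here encode the proteins that take them up and oxidise them. They were chosen by name, as steps of uptake, activation, the carnitine shuttle, the mitochondrial spiral, electron transfer and the peroxisomal steps, and every probe that the platform annotation pairs with them was taken. Of the 38 genes, 36 had a listed probe, 72 probes in all out of 45281 on the array. Acsl1 and Ucp2 had no listed probe and were not analysed here. Cpt1a and Acaca had probes that were detected on 0 of 6 arrays, so 34 genes entered the comparison among 10204 tested genes.

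RNA came from whole hearts of male C57Bl6 mice on regular chow, with no transgene or other allele named, and was measured on Illumina bead arrays. The 3 hearts after ischemia-reperfusion (IR) had their left anterior descending coronary artery occluded for 90 min and were taken after 72 h (3 days) of reperfusion. The 3 uninjured hearts had no surgery according to the labels, whereas the column names of the signal table call these arrays sham, a conflict that the sources used here do not settle. The labels number replicates without naming separate mice. The p-values therefore describe only the scatter of these arrays, part of which may be technical. Age is not given in the sources used here.

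In the heart a fatty acid released from lipoprotein triglyceride by Lpl crosses the membrane with Cd36 and Slc27a1 and is carried by Fabp3. An acyl-CoA synthetase of the Acsl family activates it, and Cpt1, on the outer mitochondrial membrane, and Cpt2, on the inner one, pass it into the matrix on carnitine. Malonyl-CoA, made by Acaca and Acacb and broken down by Mlycd, inhibits Cpt1. In the matrix each turn of the spiral removes an acetyl unit through a dehydrogenase, a hydratase, a second dehydrogenase and a thiolase, and the electrons of the first reaction pass through Etfa, Etfb and Etfdh to the respiratory chain.

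Values below are normalized log2 intensities of the brightest kept probe of each gene, on a scale with an added offset of 16, and folds refer to that scale. Values for IR hearts are given in the order of arrays 106, 107 and 886, and those for uninjured hearts in the order 109, 110 and 904. Between 18013 and 19243 probes were detected on the IR arrays and between 15891 and 17843 on the uninjured arrays. A change was called at an adjusted p under 0.05 in limma's test, with Benjamini-Hochberg adjustment over all genes tested. Because whole hearts were measured, fewer cells of a type and less RNA per cell cannot be told apart.

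Transcripts of uptake, the carnitine shuttle, the spiral and electron transfer were lower in IR hearts, while 2 of 3 tested acyl-CoA synthetases were higher. Of the 34 tested members, 31 fell and 2 rose. Of all genes tested, 73.9% were called, 34.5% as lower and 39.4% as higher. The shares of lower and higher genes are the background for counts of called genes by step and list below. By fitted values, the members that fell by at least 2-fold numbered 28, against a background of 13.6% of genes, and 19 fell by at least 4-fold, against 3.56%. The median log2 fold change was -2.10 for the tested members and 0.05 for all genes. Ehhadh and Ucp3 were detected on 0 of 3 IR arrays and passed the filter through the uninjured arrays alone. Ehhadh is among the 28 by its fitted value, whereas its bound is a decrease of at least 1.76-fold. When only probes detected on all 6 arrays were used, 28 members were tested, of which 26 fell and 2 rose, with a median of -2.16. Of the 8054 genes tested with this filter, 39.9% were lower and 37.8% higher.

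The background split depended on scaling. With arrays scaled to a common median of all probes, 17.4% of genes were lower and 59.8% higher, and with a common median of the kept probes 43.7% were lower and 32.6% higher. The members' median was -1.80 and -2.46 under these scalings. In IR hearts 30 members were lower and 3 higher under the scaling to all probes.

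**Figure D1:**
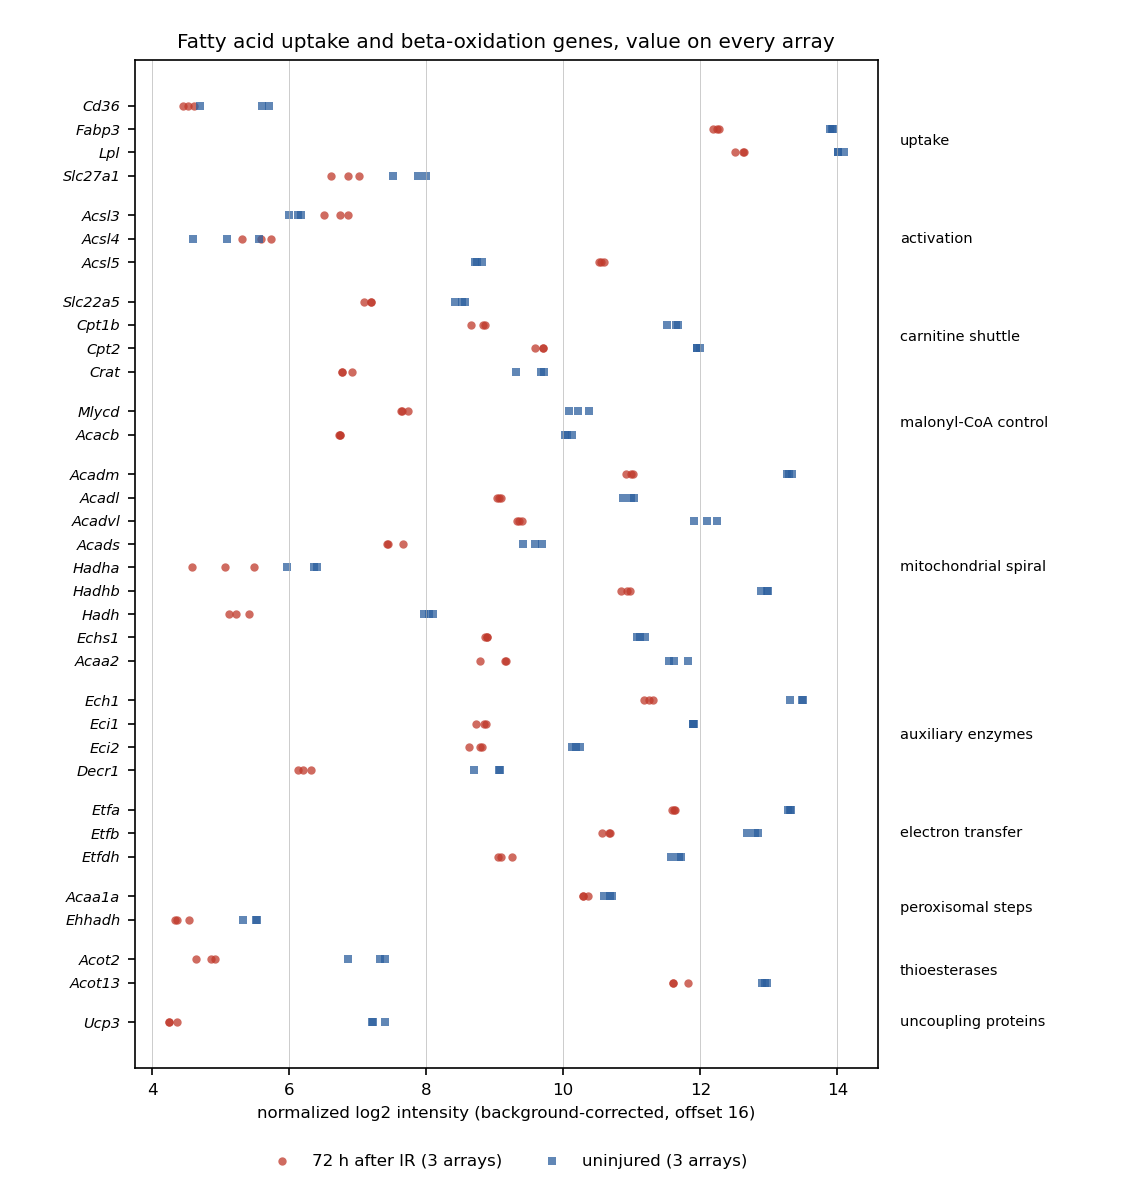
Normalized log2 intensity (x axis) of each of the 34 tested members (rows, grouped by step) on every array, with IR hearts as red circles and uninjured hearts as blue squares. The groups are apart in 33 members, with IR lower in 31 and higher in Acsl3 and Acsl5, and they overlap in Acsl4. Of all genes tested, 35.9% have groups apart with IR lower and 40.7% with IR higher.

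All 4 tested uptake genes fell, with a median log2 fold change of -1.21. Fabp3, the fatty acid binding protein of heart muscle, had log2 intensities of 12.25, 12.27 and 12.19 in IR hearts, against 13.92, 13.94 and 13.89 in uninjured hearts. Every IR value lay below every uninjured value, as in 35.9% of all genes tested, and the log2 fold change was -1.68 ± 0.06 (SE, n = 3 per group, limma adjusted p = 4.74e-07). Lpl, the lipoprotein lipase that frees fatty acids at the vessel wall, had 12.50, 12.62 and 12.63 in IR hearts, against 14.01, 14.01 and 14.09 in uninjured hearts. Its change was -1.46 ± 0.07 (limma adjusted p = 1.35e-06), and a dim second probe, detected on 0 of 3 IR arrays, gave -1.16. The raw intensities of the bright Lpl probe were 6498 to 7019 in IR hearts and 16103 to 18780 in uninjured hearts.

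Slc27a1, a fatty acid transport protein, had 7.02, 6.85 and 6.62 in IR hearts, against 7.99, 7.52 and 7.89 in uninjured hearts. Its raw intensities overlapped, at 191 to 228 in IR and 213 to 260 in uninjured hearts. The change of -0.97 ± 0.15 (limma adjusted p = 0.000749) was -0.34 with all-probe median scaling, where the call was kept. Cd36, the membrane fatty acid translocase, was read by a single probe near background, at 4.46, 4.53 and 4.61 in IR hearts, against 5.61, 4.70 and 5.70 in uninjured hearts. Uninjured array 110 was almost as low as the IR arrays, and 1 of 3 IR arrays detected the probe. Raw intensities of Cd36 overlapped, at 89.0 to 94.4 in IR and 87.0 to 108.4 in uninjured hearts. Its change of -0.80 ± 0.25 (limma adjusted p = 0.0215) lost the call without IR array 106 (adjusted p = 0.0652), IR array 107 (0.0606), uninjured array 109 (0.0624) or uninjured array 904 (0.0568). It was -0.29 without background correction and with the authors' processed values.

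Of the acyl-CoA synthetases, 2 of 3 tested genes rose, and each had its groups apart, as 40.7% of all genes had with IR higher. Acsl5, a form of the mitochondrial outer membrane and endoplasmic reticulum, had log2 intensities of 10.59, 10.52 and 10.56 in IR hearts, against 8.75, 8.82 and 8.71 in uninjured hearts. It was 3.48-fold higher after IR, with a log2 fold change of 1.80 ± 0.06 (limma adjusted p = 4.25e-07). A second Acsl5 probe gave 1.63, and the dimmest, detected on 0 of 3 uninjured arrays, gave 0.40. Acsl3, a form found on the endoplasmic reticulum and lipid droplets, had 6.51, 6.74 and 6.85 in IR hearts, against 6.01, 6.13 and 6.17 in uninjured hearts.

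The Acsl3 change was 0.60 ± 0.10 (limma adjusted p = 0.0012). It was 1.24 with all-probe median scaling and 0.33 without background correction. Acsl4, which prefers arachidonic acid, had 5.32, 5.73 and 5.59 in IR hearts, against 4.59, 5.10 and 5.56 in uninjured hearts. The groups overlapped, and the value of 0.46 (95% interval -0.09 to 1.02) was not called (limma adjusted p = 0.113). Its second kept probe, detected on 1 of 3 uninjured arrays, gave 0.51 and was called among kept probes (limma adjusted p = 0.00715). The gene was called without uninjured array 904 (0.70, adjusted p = 0.0113) and with arrays 106 to 110 only (0.68, adjusted p = 0.0398). It was also called when arrays shared the median of all probes (0.89) and when its kept probes were averaged (0.49). Its adjusted p ranged from 0.000201 to 0.302 over the alternatives. Acsl1, the main synthetase of heart muscle, is not among these values.

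Markers of macrophages, neutrophils, fibroblasts and cell division rose in the same hearts as Acsl5 and Acsl3. Among all genes tested, 39.4% rose. Of 15 tested monocyte and macrophage markers, 14 rose, and their summed intensity was 25024 to 26482 in IR hearts, against 3088 to 3644 in uninjured hearts. All 6 tested neutrophil markers rose, with sums of 2451 to 3870 in IR and 27.8 to 67.4 in uninjured hearts. Of 10 tested fibroblast and matrix markers, 9 rose, with sums of 16301 to 16635 in IR hearts, against 8889 to 9138 in uninjured hearts. All 5 tested cell division markers rose, with sums of 2563 to 2652 in IR hearts, against 126 to 205 in uninjured hearts. Itgam, Ccr2, Cxcr2, Mpo, Retnlg and Postn, counted here as rising, were detected on 0 of 3 uninjured arrays and entered by their IR signal. With each uninjured array at its lowest detected level, or the marker's level if higher, Itgam and Mpo were at least 1.05-fold higher. This bound was 1.14-fold for Retnlg, 1.57-fold for Ccr2 and 2.85-fold for Cxcr2. For Postn it was 0.958-fold, which shows no rise. These bounds were not tested. The tested Acsl genes summed to 1577 to 1625 in IR hearts, against 470 to 506 in uninjured hearts. The part of these cells in the Acsl values was not tested.

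**Figure D2:**
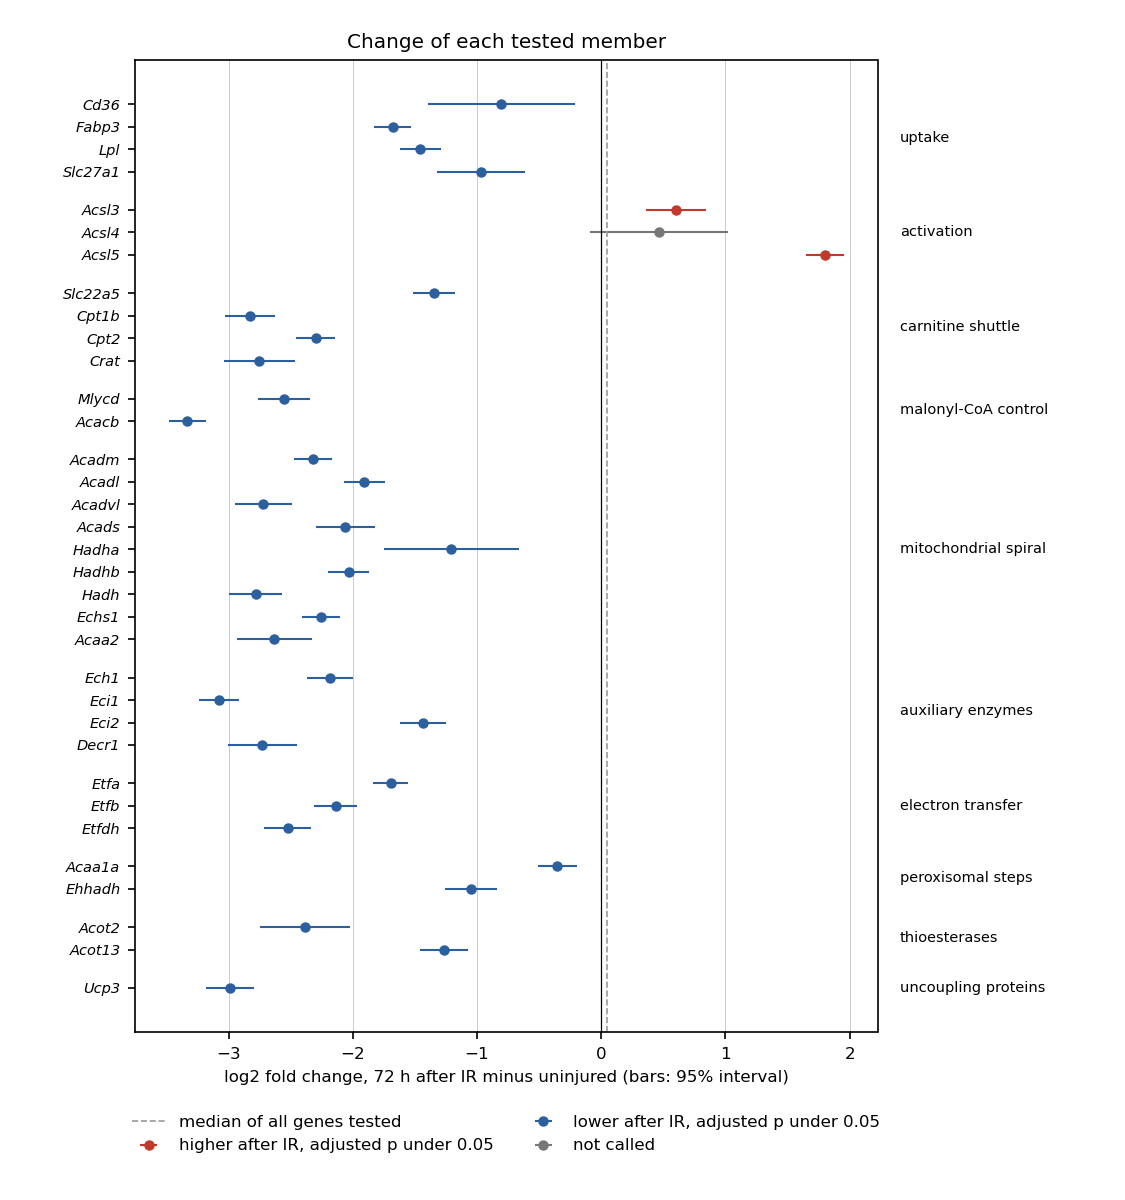
Log2 fold change of each tested member, 72 h after IR minus uninjured (x axis), with its 95% interval (bars), members in rows by step. Carnitine shuttle, malonyl-CoA, spiral and auxiliary genes lie between -3.33 and -1.21, Acaa1a at -0.35 lies nearest to 0 among those called lower, and Acsl5 at 1.80 is the highest.

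Genes of the carnitine shuttle fell in 4 of 4 tested cases, against 34.5% of all genes. Cpt1b, the muscle form of carnitine palmitoyltransferase 1 and the step that malonyl-CoA inhibits, had 8.84, 8.66 and 8.86 in IR hearts, against 11.68, 11.52 and 11.65 in uninjured hearts. It was 7.10-fold lower, with a log2 fold change of -2.83 ± 0.08 (limma adjusted p = 2.17e-07), and its second probe gave -2.70. Cpt1a, the liver form, stayed at background: its probes had raw intensities of 77.7 to 87.8 in IR and 78.5 to 87.5 in uninjured hearts, so no change of it could be read.

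Cpt2, the inner membrane partner, had 9.70, 9.58 and 9.71 in IR hearts, against 11.95, 11.95 and 11.99 in uninjured hearts. Its probes gave -2.30, -2.41 and -2.77, with the largest change on the dimmest. Crat, which moves acetyl groups onto carnitine, had 6.92, 6.77 and 6.77 in IR hearts, against 9.68, 9.31 and 9.72 in uninjured hearts, a change of -2.75 ± 0.12 (limma adjusted p = 9.49e-07). Dimmer Crat probes, detected on all 6 arrays, gave -1.74 and -1.20. Slc22a5, the carnitine importer of the cell membrane, had 7.20, 7.09 and 7.19 in IR hearts, against 8.52, 8.43 and 8.57 in uninjured hearts. Its change of -1.35 ± 0.07 was -0.73 with all-probe median scaling.

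Both measured genes that set malonyl-CoA fell, the one that makes it and the one that breaks it down. Acacb, the mitochondrial acetyl-CoA carboxylase of muscle, had 6.75, 6.74 and 6.73 in IR hearts, against 10.05, 10.03 and 10.13 in uninjured hearts. At 10.1-fold lower it had the largest decrease of the 34 tested members, -3.33 ± 0.06 (limma adjusted p = 1.00e-07). Ordered from the lowest log2 fold change, it was number 53 of the 10204 tested genes. Mlycd, malonyl-CoA decarboxylase, had 7.74, 7.63 and 7.64 in IR hearts, against 10.21, 10.09 and 10.37 in uninjured hearts, a change of -2.55 ± 0.09 (limma adjusted p = 3.88e-07). Acaca, the cytosolic carboxylase of fatty acid synthesis, had raw intensities of 81.9 to 90.5 in IR hearts and 78.7 to 81.9 in uninjured hearts, which is background.

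All 9 spiral genes fell, and the groups did not overlap in any of them. Of all genes tested, 35.9% had groups apart with IR lower. The dehydrogenases for long, medium and short chains all fell. Acadvl, for very long chains, had 9.33, 9.35 and 9.41 in IR hearts, against 12.10, 11.90 and 12.25 in uninjured hearts, a change of -2.72 ± 0.10 (limma adjusted p = 4.00e-07). Acadl, for long chains, had 9.06, 9.04 and 9.09 in IR hearts, against 11.03, 10.99 and 10.88 in uninjured hearts, at -1.91 ± 0.07 (limma adjusted p = 4.25e-07).

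Acadm, for medium chains, had 10.99, 11.02 and 10.92 in IR hearts, against 13.34, 13.29 and 13.27 in uninjured hearts. It fell by 2.32 on the log2 scale (limma adjusted p = 1.83e-07). Acads, for short chains, had 7.43, 7.66 and 7.44 in IR hearts, against 9.59, 9.41 and 9.69 in uninjured hearts, at -2.06 ± 0.10. A second Acadvl probe gave -2.45, and the other Acadl probes gave -2.46 and -0.81. Differences between these genes were not tested, since probes differ in how they respond.

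The later enzymes of the spiral fell too. Echs1, the short-chain hydratase, had 8.89, 8.86 and 8.88 in IR hearts, against 11.12, 11.08 and 11.19 in uninjured hearts, a change of -2.26 ± 0.06. A second Echs1 probe near background gave -0.11, so the mean of its kept probes was -1.18. Hadh, the short-chain 3-hydroxyacyl-CoA dehydrogenase, had 5.23, 5.13 and 5.41 in IR hearts, against 8.04, 7.97 and 8.10 in uninjured hearts. Its change of -2.78 ± 0.09 was -1.64 without background correction, as the IR values lay close to background. Acaa2, the matrix thiolase that closes the turn, had 9.16, 8.78 and 9.15 in IR hearts, against 11.62, 11.55 and 11.83 in uninjured hearts. Its 4 probes gave changes between -2.63 and -2.55.

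Hadha and Hadhb encode the subunits of the mitochondrial trifunctional protein, which carries out the last reactions on long chains. Hadhb had 10.93, 10.84 and 10.97 in IR hearts, against 12.89, 12.98 and 12.97 in uninjured hearts, a change of -2.03 ± 0.07 (limma adjusted p = 3.45e-07). Hadha was read by a dim probe, at 5.49, 4.58 and 5.06 in IR hearts, against 6.41, 6.37 and 5.98 in uninjured hearts. Raw intensities of Hadha overlapped, at 94.9 to 122.1 in IR and 115.9 to 130.3 in uninjured hearts. Its change was -1.21 ± 0.23 (limma adjusted p = 0.00223), it was detected on 2 of 3 IR arrays, and it was -0.52 without background correction and -0.71 with all-probe median scaling.

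These genes lie head to head, with 272 bases between their starts in the RefSeq promoter table (GRCm38.p6). The 250 bases before the start of Hadhb (chr5:30155003-30155252, plus strand) lie in that interval and are shown because both genes fell. The sequence holds no match to the motifs searched below and so has no capitals.
Hadhb: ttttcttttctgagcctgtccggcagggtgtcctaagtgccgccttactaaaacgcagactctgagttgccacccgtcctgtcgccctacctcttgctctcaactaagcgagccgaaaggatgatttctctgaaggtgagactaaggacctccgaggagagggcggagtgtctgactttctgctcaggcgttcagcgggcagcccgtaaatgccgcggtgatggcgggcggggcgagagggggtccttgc

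Auxiliary enzymes handle the double bonds of unsaturated fatty acids, and all 4 fell. Eci1, the mitochondrial enoyl-CoA isomerase, had 8.88, 8.84 and 8.73 in IR hearts, against 11.89, 11.91 and 11.89 in uninjured hearts. It was 8.44-fold lower, at -3.08 ± 0.07 (limma adjusted p = 1.05e-07). Eci2, an isomerase of mitochondria and peroxisomes, had 8.79, 8.63 and 8.82 in IR hearts, against 10.18, 10.13 and 10.24 in uninjured hearts, at -1.44 ± 0.08 or -0.95 with all-probe median scaling.

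Decr1, the mitochondrial dienoyl-CoA reductase, had 6.21, 6.13 and 6.32 in IR hearts, against 9.07, 8.70 and 9.07 in uninjured hearts, at -2.73 ± 0.12. Ech1, a dienoyl-CoA isomerase, had 11.25, 11.18 and 11.31 in IR hearts, against 13.50, 13.31 and 13.48 in uninjured hearts. It fell by 2.18 on the log2 scale (limma adjusted p = 4.26e-07).

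The carriers of electrons from the acyl-CoA dehydrogenases fell in 3 of 3 cases. Etfa, the alpha subunit of the electron transfer flavoprotein, had 11.59, 11.62 and 11.63 in IR hearts, against 13.31, 13.28 and 13.32 in uninjured hearts, and its probes gave -1.69, -1.93 and -1.93. Etfb, the beta subunit, had 10.68, 10.57 and 10.66 in IR hearts, against 12.84, 12.68 and 12.80 in uninjured hearts, at -2.14 ± 0.07. Etfdh, the membrane oxidoreductase that passes the electrons to ubiquinone, had 9.09, 9.05 and 9.25 in IR hearts, against 11.68, 11.57 and 11.71 in uninjured hearts, at -2.52 ± 0.08. A dimmer Etfdh probe, detected on all 6 arrays, gave -1.95. Another, detected on 0 of 3 IR arrays, gave a fitted -0.93, and the last, detected on 1 of 3 IR arrays, gave -0.35 and was not called. The mean of the kept probes, which includes these, was -1.44.

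Both tested peroxisomal members fell, with a median log2 fold change of -0.70. Acaa1a, the peroxisomal thiolase, had 10.29, 10.37 and 10.29 in IR hearts, against 10.69, 10.60 and 10.72 in uninjured hearts. The groups were apart and the change of -0.35 ± 0.07 was called (limma adjusted p = 0.00205). Its raw intensities overlapped, at 1505 to 1577 in IR and 1410 to 1542 in uninjured hearts. Scaled to the median of all probes, the value turned to 0.032 (adjusted p = 0.802), and with the median of the kept probes it was -0.63. Its adjusted p ranged from 6.56e-05 to 0.802 over the alternatives. Ehhadh, the peroxisomal bifunctional enzyme, was not detected in IR hearts and read 5.53, 5.33 and 5.52 in uninjured hearts, at least 1.76-fold lower after IR. The limma adjusted p of 2.64e-05 belongs to its fitted change of -1.05, and the bound itself was not tested. For this bound each IR array took the lowest level of any detected probe, or the level of Ehhadh where that was higher. It holds on the background-corrected scale only: without background correction the log2 fold change of Ehhadh was -0.39.

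The thioesterases and the uncoupling protein fell too. Acot2, which splits acyl-CoA in the matrix, had 4.65, 4.92 and 4.86 in IR hearts, against 7.32, 6.86 and 7.41 in uninjured hearts. Its change of -2.39 ± 0.15 (limma adjusted p = 6.10e-06) was -1.17 without background correction, and 2 of 3 IR arrays detected the probe. Its other probes lay near background, were not kept and gave 0.04 and 0.01. Whether the kept Acot2 probe also bound transcripts of Acot1, near-identical in sequence, was not tested. Acot13, a thioesterase associated with mitochondria, had 11.60, 11.82 and 11.60 in IR hearts, against 12.90, 12.98 and 12.94 in uninjured hearts, at -1.27 ± 0.08. Ucp3, an inner membrane carrier of muscle induced by fatty acids, was detected on 0 of 3 IR arrays and had 7.40, 7.20 and 7.22 in uninjured hearts. It was at least 6.19-fold lower in IR hearts, and its measured means were 4.29 in IR and 7.28 in uninjured hearts. The limma adjusted p of 1.75e-07 belongs to the fitted change of -2.99, and the bound itself was not tested. This bound too holds on the background-corrected scale only, and the log2 fold change was -1.48 without background correction.

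Kept probes of the same gene did not disagree in direction. Of 60 kept member probes, 52 were called lower and 5 higher when all kept probes were tested, against 33.1% lower and 36.5% higher among all 18197 kept probes. Both Ucp3 probes, the Ehhadh probe and a dim probe each of Lpl and Etfdh were detected on no IR array. The dimmest kept Acsl5 probe was detected on no uninjured array. These probes passed the filter through their brighter group alone. Among the 47 member probes detected on all 6 arrays, 44 were called lower and 3 higher. In each of the 16 genes with several kept probes, all of them had the same sign. The largest change was on the brightest probe in 11 of the 16, the exceptions being Acadl, Acsl4, Cpt2, Etfa and Slc22a5. Dim probes gave smaller values, for example -0.81 for the dimmest Acadl probe beside -1.91 for the brightest and -2.46 for the one between.

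**Figure D3:**
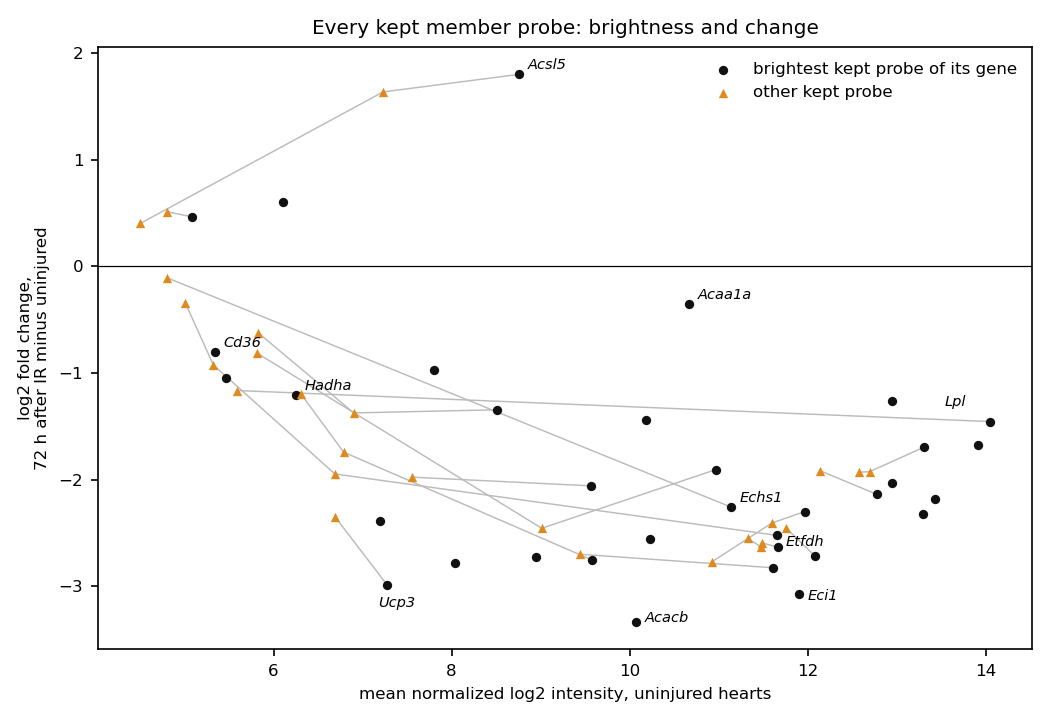
Mean normalized log2 intensity in uninjured hearts (x axis) and log2 fold change, 72 h after IR minus uninjured (y axis), of the 60 kept member probes, with grey lines joining probes of 1 gene. Black circles are the brightest probe of each gene and orange triangles the others; probes of Acsl3, Acsl4 and Acsl5 lie above 0 and all others below, with dim probes nearer to 0.

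Promoter windows were available for 32 of the 38 genes in the RefSeq promoter table, and 250 bases before each start were searched on both strands. The core hexamer of the nuclear receptors that include the PPAR, RXR and ERR families, AGGTCA, was found in 6 of 32 members (18.8%) and in 15.8% of 27025 genes. The members were Acadm, Acadvl, Cd36, Cpt1a, Echs1 and Ucp3. The direct repeat (AGGTCA, any base, AGGTCA), its looser form (AGGNCA, any base, AGGNCA) and the ERR element TCAAGGTCA overlap the hexamer motif. They were in 0 of 32 members and in 0.0407%, 0.4% and 0.422% of genes. The core of the nuclear respiratory factor motif (GCGCA, any base, GCGC) was in 3 of 32 members (9.38%), Etfb, Etfdh and Slc22a5, and in 4.23% of genes. A match is a description of the letters, and no match says only that they are not in this window.

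The windows of 3 members that fell and of Acsl5, which rose, are shown to set them side by side, from the gene's own strand. Capitals mark the hexamer in Acadvl (chr11:70015429-70015678, minus strand) and Ucp3 (chr7:100472741-100472990, plus strand) and the respiratory factor core in Etfdh (chr3:79628768-79629017, minus strand). Acsl5 (chr19:55253119-55253368, plus strand) has no match. The Acadvl hexamer starts 87 bases before the start of the gene, those of Ucp3 start 149 and 44 bases before it, and the Etfdh core starts 128 bases before it.
Acadvl: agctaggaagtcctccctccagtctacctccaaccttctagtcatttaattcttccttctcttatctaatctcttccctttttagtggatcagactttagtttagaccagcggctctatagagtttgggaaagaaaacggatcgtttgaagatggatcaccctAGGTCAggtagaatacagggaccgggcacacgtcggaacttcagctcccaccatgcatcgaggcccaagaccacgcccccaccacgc
Etfdh: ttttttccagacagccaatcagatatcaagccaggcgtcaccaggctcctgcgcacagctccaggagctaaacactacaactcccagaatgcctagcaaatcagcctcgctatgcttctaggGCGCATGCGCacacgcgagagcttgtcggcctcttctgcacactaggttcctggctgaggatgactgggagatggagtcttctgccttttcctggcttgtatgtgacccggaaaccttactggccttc
Ucp3: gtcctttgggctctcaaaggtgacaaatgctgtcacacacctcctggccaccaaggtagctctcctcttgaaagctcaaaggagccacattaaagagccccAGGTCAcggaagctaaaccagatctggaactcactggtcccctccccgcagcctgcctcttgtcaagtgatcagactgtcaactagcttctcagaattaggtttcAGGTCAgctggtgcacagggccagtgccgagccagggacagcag
Acsl5: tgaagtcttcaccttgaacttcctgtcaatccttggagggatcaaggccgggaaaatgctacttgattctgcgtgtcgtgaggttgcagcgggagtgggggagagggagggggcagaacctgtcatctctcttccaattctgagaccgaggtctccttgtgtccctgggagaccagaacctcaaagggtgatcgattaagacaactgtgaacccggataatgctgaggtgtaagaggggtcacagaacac

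Regulators of fatty acid oxidation fell in 14 of 22 tested cases and rose in 1, at a median of -0.93 on the log2 scale. The shares over all genes tested were 34.5% lower and 39.4% higher. Ppargc1a, the coactivator of mitochondrial and fatty acid genes, had 5.81, 5.61 and 5.65 in IR hearts, against 9.58, 9.42 and 8.98 in uninjured hearts, and was 12.5-fold lower (limma adjusted p = 8.02e-07). Lpin1, a phosphatidate phosphatase that also acts as a coactivator, was 11.8-fold lower, and Rxrg, a retinoid X receptor that pairs with PPARs, 7.94-fold lower. Nrf1, nuclear respiratory factor 1, was the 1 gene that rose, by 0.47 ± 0.10, and is named here because of that count. With all-probe median scaling, under which 59.8% of all genes were higher, 6 rose. Ppara had no kept probe.

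Other genes of uptake and lipid handling were divided, 3 rising and 8 falling of 13 tested, against 39.4% and 34.5% of all genes. Angptl4, a secreted inhibitor of Lpl, had 10.68, 10.35 and 10.75 in IR hearts, against 6.90, 8.04 and 6.62 in uninjured hearts, with uninjured array 110 the highest of its group. It was 10.6-fold higher in IR hearts (3.41 ± 0.35, limma adjusted p = 7.03e-05), while Lpl fell. Plin5, a lipid droplet protein of oxidative tissue, was 17.2-fold lower (-4.11 ± 0.10) and Dgat2, which makes triglyceride, 12.5-fold lower (-3.65 ± 0.13). Fabp5 and Plin2, picked out after their values were seen as the other genes that rose, were 7.55-fold and 5.11-fold higher. With all-probe median scaling, under which 17.4% of all genes were lower, 4 genes of this list fell.

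Of 14 other tested genes listed as mitochondrial, 12 fell and 0 rose at an adjusted p under 0.05 in limma. Their median was -1.51, and among all genes 34.5% fell and 39.4% rose. The 12 include Acsf2, which was detected on 0 of 3 IR arrays and entered by its uninjured signal. Its bound was a decrease of at least 1.34-fold, which was not tested. Acss1, the mitochondrial acetyl-CoA synthetase, fell by 3.07 on the log2 scale, and Pdk4, the kinase that shuts pyruvate out of oxidation, fell by 3.01. Acot1, counted in this list although it is a cytosolic thioesterase, was at -2.18 ± 0.21. It is near-identical in sequence to Acot2, and probes of such relatives can bind each other's transcripts. Of 9 other peroxisomal genes, 7 fell and 1 rose, against 34.5% and 39.4% of all genes, and the median was -0.74. Pex11a, a peroxisome division protein, was at -2.06 ± 0.08, and Abcd3, an importer of the peroxisomal membrane, at -1.28 ± 0.08. Scp2, a lipid carrier and thiolase, was at -1.21 ± 0.07. The gene that rose was Abcd2, at 0.26 (limma adjusted p = 0.0344), and 0 genes of this list rose when any array other than uninjured array 110 was left out. With all-probe median scaling, under which 17.4% of all genes were lower, 4 peroxisomal genes fell.

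Of 11 tested fatty acid synthesis genes, 7 rose and 2 fell, against 39.4% and 34.5% of all genes. Their median was 0.85. Elovl1, an elongase, was 3.98-fold higher (limma adjusted p = 3.25e-07) and Fads1, a desaturase, 2.96-fold higher (limma adjusted p = 9.46e-07). Thrsp, a lipogenic protein, was 3.97-fold lower and detected on 2 of 3 IR arrays. Fasn was detected on 0 of 6 arrays. The other gene that fell was Me1, at -1.52.

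**Figure D4:**
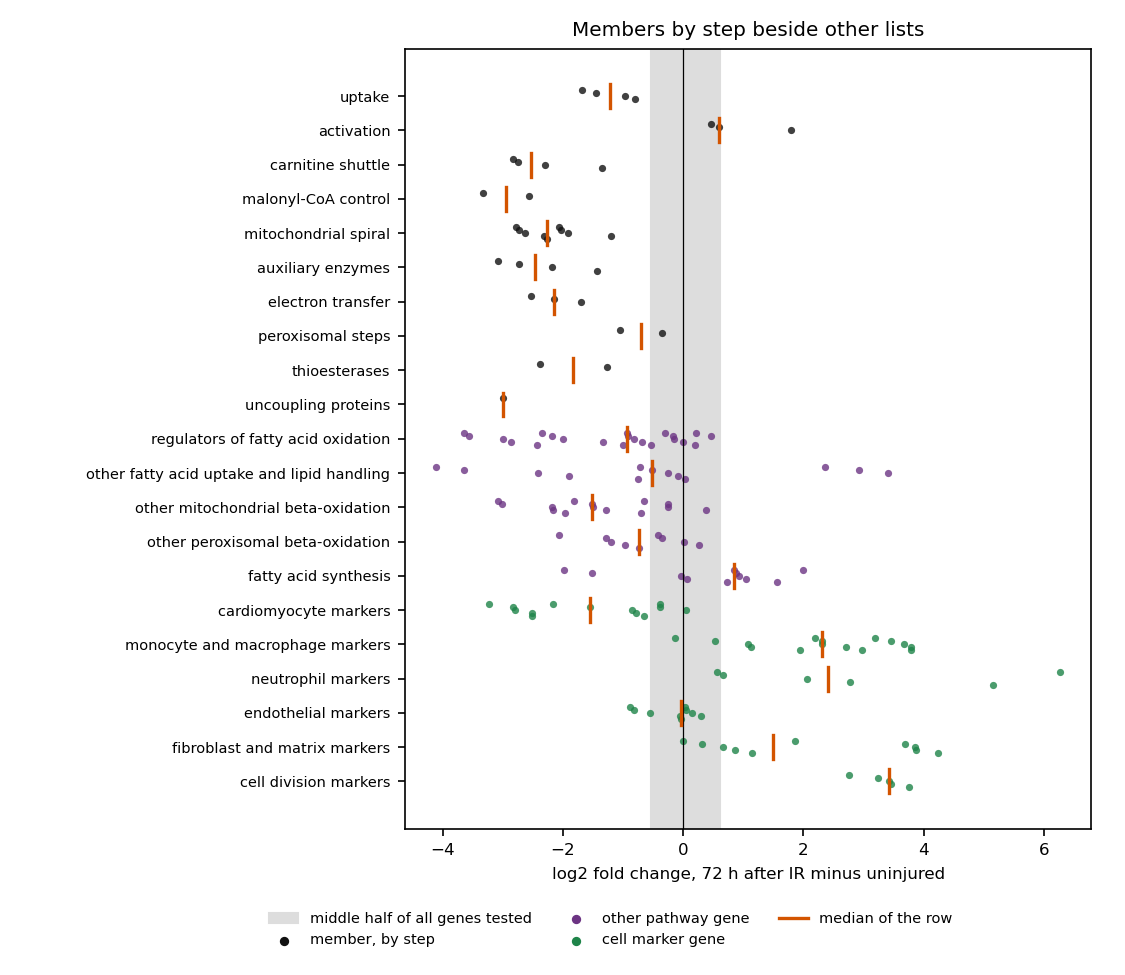
Log2 fold change, 72 h after IR minus uninjured (x axis), of the tested members by step (black), of other pathway genes (purple) and of cell markers (green), with each row's median as an orange bar and the middle part of all genes tested, between quartiles, in grey. Member medians range from -2.99 for Ucp3 alone to 0.60 for the synthetases, and the cardiomyocyte markers' median is -1.55.

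Cardiomyocyte markers fell in the same hearts, in 12 of 13 tested cases, against 34.5% of all genes. Their log2 fold changes had a median of -1.55 and a range of -3.22 to 0.04. Their summed intensity was 72731 to 76362 in IR hearts, against 140272 to 144569 in uninjured hearts. The tested members summed to 33416 to 33898 in IR hearts, against 117660 to 123320 in uninjured hearts. Such sums weigh the brightest probes most. Myl2 had the same value, 14.21, on each of the 3 uninjured arrays, so its change of -0.39 may be too small. Whether bright probes were near the top of their range was not tested. The sums therefore do not measure whether members fell further than these markers. Endothelial markers had a median of -0.04, with 1 rising and 3 falling of 9 tested, against 39.4% and 34.5% of all genes. Of 5 adipocyte markers with a listed probe, 4 (Adipoq, Lep, Cidec and Retn) were detected on 0 of 6 arrays and none had a kept probe. The part of cell makeup in the members' values was not tested.

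**Figure D5:**
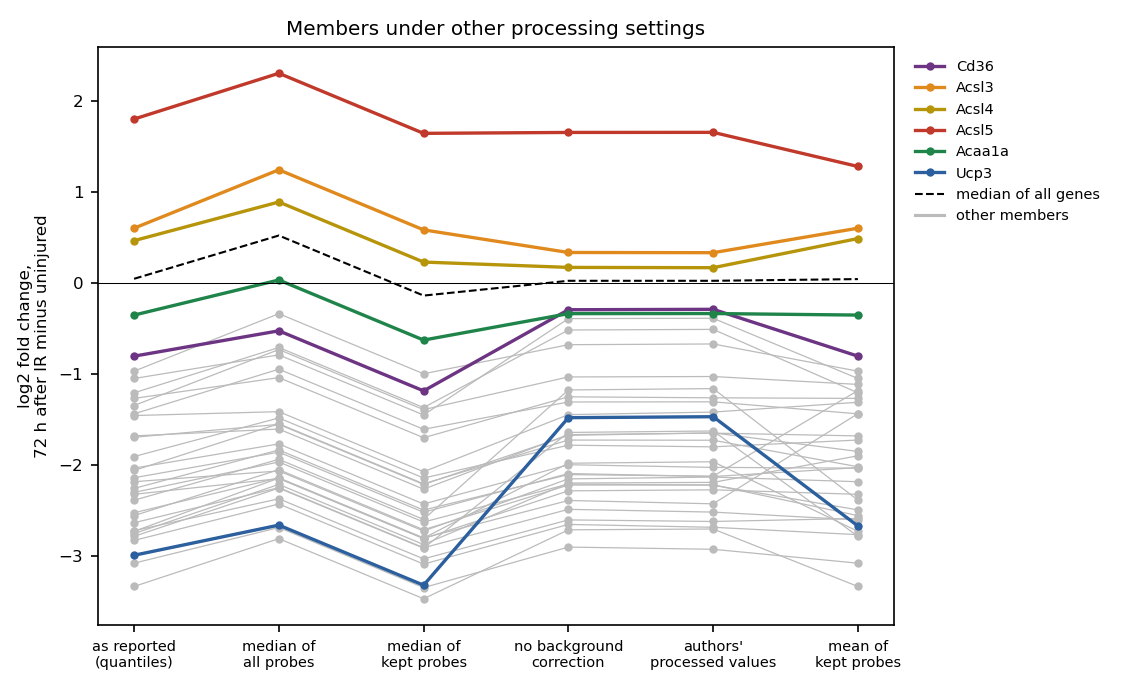
Log2 fold change, 72 h after IR minus uninjured (y axis), of each tested member under 6 processing settings (x axis), with named members in colour, the others in grey and the median of all genes as a dashed line. Acaa1a crosses 0 under all-probe median scaling (0.032), and Ucp3 moves to -1.48 without background correction.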

How the data were processed

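Expression in 6 whole-heart samples was measured on Illumina bead arrays. The deposited intensity table gives, per the file headers, a mean bead signal and a detection p-value for 45281 probes. The submitters' processing notes name GenomeStudio 2010.3. Judged by array quantiles that differ, the deposited intensities were not normalized. A second deposited table of the authors' intensities, which share 1 minimum and 1 maximum, was used only as an alternative.

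limma 3.58.1 (R 4.3.3, statmod 1.5.0) supplied neqc, which corrected background from the detection p-values, with an offset of 16, followed by quantile normalization and log2. Probes with a detection p-value under 0.05 on at least 3 of 6 arrays were kept (18197), and the brightest kept probe stood for a gene (10204 genes). Genes were named from the platform annotation, updated through Entrez identifiers to RefSeq (GRCm38.p6): 34885 probes had 1 symbol, 18 several and 10378 none. Groups were compared with lmFit and eBayes and Benjamini-Hochberg adjustment. The model fit was tested on simulated gene values with independent normal noise, which did not pass through background correction, normalization or filtering. The number of arrays limits precision.

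Members and lists were chosen with earlier results of these data known. All members were named, and from each other pathway list the 3 called genes with the largest change. The 6 planned paralog pairs could not be compared, since 0 of them had both genes tested. Alternatives covered scaling, background, filter, probe rule, moderation and arrays.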

Additional observations from a re-analysis of the deposited data

How the results depend on the processing

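Over 16 alternatives the 34 tested members gave 538 values, of which 528 kept direction and call, 1 turned (Acaa1a to 0.032 with all-probe median scaling), 5 lost the call (Cd36) and 4 gained it (Acsl4). The members lower numbered 26 to 31 and those higher 2 or 3 over the alternatives. The 26 came from probes detected on all 6 arrays, which left 28 members. The members' median of -2.10 moved by more than the spread between arrays when arrays shared the median of all probes (-1.80) or of kept probes (-2.46), without background correction (-1.70), with the authors' processed values (-1.69) and by the mean of kept probes (-1.87). Leaving out 1 array gave medians of -2.16 to -2.07, 30 or 31 members lower and 2 or 3 higher. Arrays numbered 106 to 110 alone gave 30 lower and 3 higher. No pairing by the labels' replicate numbers was seen, as deviations of same-numbered arrays correlated at -0.04, -0.01 and -0.07. With 3 arrays per group, these correlations cannot show whether the samples were paired. The replicate numbers could be used only with the authors' values. There the replicate block left a median of -1.69 with 31 lower and 2 higher, changing no member's call. Without background correction the dim members Ehhadh, Hadha, Acot2 and Ucp3 moved to -0.39, -0.52, -1.17 and -1.48. Signal near background limits Cd36, Hadha, Ehhadh, Acsl4, Cpt1a and Acaca.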

Other observations

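The AMP-activated kinase, an energy sensor that phosphorylates the acetyl-CoA carboxylases, was measured through several subunits, picked out here after their values were seen. Prkaa2, the catalytic form of muscle, averaged 5.92 ± 0.24 in IR hearts and 8.10 ± 0.16 in uninjured hearts (SD, n = 3 each) and fell by 2.18 on the log2 scale (limma adjusted p = 5.25e-06). Prkaa1, the other catalytic form, was detected on 1 of 3 uninjured arrays and had a value of 0.20 (limma adjusted p = 0.393). The regulatory subunits Prkab1 and Prkag1 were at -0.99 and -0.81 and were called, whereas Prkab2 (-0.30) and Prkag2 (-0.53) were not.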
